A study of Mus musculus with 21 samples.

Results

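Chemokines are small secreted proteins that guide leukocytes, and their receptors sit on the surface of the cells they guide. The genes followed here were 39 mouse genes of that system, taken by gene symbol out of the 55418 symbols counted in each library: 16 CC ligands, 10 CXC ligands, 1 CX3C ligand, 6 CC receptors, 5 CXC receptors and 1 CX3C receptor. They were measured by RNA-seq of whole mouse liver in 4 groups. The WT chow group (6 libraries) carried wild-type Mboat7 and ate chow, and the KO chow group (7 libraries) had Mboat7 deleted in hepatocytes and ate chow. The WT HFMCD and KO HFMCD groups (4 libraries each) had the same genotypes and ate HFMCD, a fat-rich diet poor in methionine and deficient in choline. Mice began HFMCD at an age of 6 to 8 weeks and ate it for 6 weeks, whereas chow mice were 10 weeks old. The promoter that drove the deletion, the strain and the sex were not given in the sources used here. Chow and HFMCD libraries also carry separate ranges of animal numbers, so that diet cannot be told apart from age or from a batch that follows those numbers. The series asks what changes after loss of Mboat7, an acyltransferase that places arachidonic acid on lysophosphatidylinositol, at steady state and on HFMCD.

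CC, CXC and CX3C ligands are named after the spacing of their conserved cysteines, and they act on receptors that couple to inhibitory G proteins in leukocytes. In the liver, Ccl2 and its receptor Ccr2 are known for bringing monocytes from blood, the ligands of Cxcr2 for bringing neutrophils, and the interferon-induced ligands of Cxcr3 for bringing T cells. Hepatocytes, Kupffer cells, stellate cells, endothelium and bile duct cells can all release chemokines, so whole-liver RNA mixes the cells that send the signal with those that receive it. In such bulk samples fewer cells of a type and less RNA per cell cannot be told apart.

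Libraries held 17502231 to 23058789 counts on chow and 22617598 to 25822972 on HFMCD, and levels are given as CPM, the reads of a gene relative to the total of its library. The deleted gene, Mboat7, separated the genotypes without overlap: on chow it lay between 18.8 and 24.1 CPM in KO and between 33.0 and 39.7 CPM in WT, and on HFMCD between 15.8 and 20.8 CPM in KO and between 34.7 and 38.1 CPM in WT. Its log2 fold change was -0.76 (SE 0.073, edgeR adjusted p = 3.92e-06) on chow and -0.94 (SE 0.094, edgeR adjusted p = 7.48e-06) on HFMCD. Albumin, the plasma protein of hepatocytes, had 56870 to 97640 CPM over all libraries. KO chow replicates 1 and 7 stood apart: they held 95.6 and 54.6 CPM of Dmbt1, a mucosal glycoprotein, and 9.06 and 8.44 CPM of Krt19, a bile duct keratin, and replicate 7 also held 331 CPM of the muscle gene Ttn. WT chow replicates 3 and 5 held 41.6 and 27.6 CPM of Dmbt1. Leaving out KO chow replicates 1 and 7 moved the KO estimates of Cxcl5 and Cx3cr1 by over 1.5 times, and both genes are given with and without them.

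Of the 39 genes, 32 had enough reads to be tested (21 ligands and 11 receptors). The 7 others were Ccl8, Ccl11, Ccl17, Ccl19, Ccl20, Ccl28 and Ccr6. Only 20 of the 32 passed the same filter on the chow libraries alone, and the other 12 passed because of their reads on HFMCD, so that a rise of those 12 on HFMCD was built into the filter. They were Ccl2, Ccl3, Ccl4, Ccl7, Ccl22, Cxcl2, Cxcl5, Ccr1, Ccr3, Ccr9, Cxcr2 and Cxcr5, and their diet values are given as a description. A gene is written as called when edgeR's adjusted p (Benjamini-Hochberg, over the 15677 genes tested) was under 0.05.

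Per exon length, the most abundant ligand transcript of WT liver on chow was Cxcl12, at 41.0 RPKM (CPM divided by the exon length in kilobases). It was followed by Ccl9 (12.6 RPKM), Cxcl13 (12.6 RPKM) and Ccl6 (8.61 RPKM), and no other ligand exceeded Cxcl16 at 3.0 RPKM. On HFMCD the order in WT was Ccl9 (45.1 RPKM), Cxcl12 (41.3 RPKM), Ccl6 (37.9 RPKM), Cxcl16 (12.7 RPKM) and Cxcl9 (11.7 RPKM). Receptors were far lower per length: the highest, Cxcr4, had a mean of 0.813 RPKM in WT on chow and 5.95 RPKM in WT on HFMCD. In WT on HFMCD it was followed by Cx3cr1 (2.96 RPKM) and Ccr2 (2.81 RPKM).

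On HFMCD nearly all tested genes of the system differed from chow, and most were higher. The 32 tested genes include the 12 whose rise was built into the filter. In WT, 31 of the 32 tested genes were called between the diets, 28 higher and 3 lower on HFMCD. In KO, 30 of 32 were called, 27 higher and 3 lower. This stood against a broad response of the liver: 62.5% of all tested genes were called in WT (29.0% higher and 33.6% lower) and 69.7% in KO (33.7% higher and 36.0% lower). For the 20 genes that passed the filter on chow alone, 16 were called higher and 3 lower in each genotype. Among all genes that passed that way, 26.9% were called higher in WT and 31.3% in KO. The median log2 fold change of those 20 genes was 2.11 in WT and 2.36 in KO, beside -0.09 and -0.07 over all genes that passed on chow alone. Summed over the 16 CC ligands, the level averaged 62.3 CPM ± 14.1 (SD, n = 6) in WT on chow and 239.0 CPM ± 9.98 (SD, n = 4) in WT on HFMCD. The 12 receptors together averaged 7.67 CPM ± 2.39 (SD, n = 6) and 57.9 CPM ± 5.98 (SD, n = 4).

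**Figure D1:**
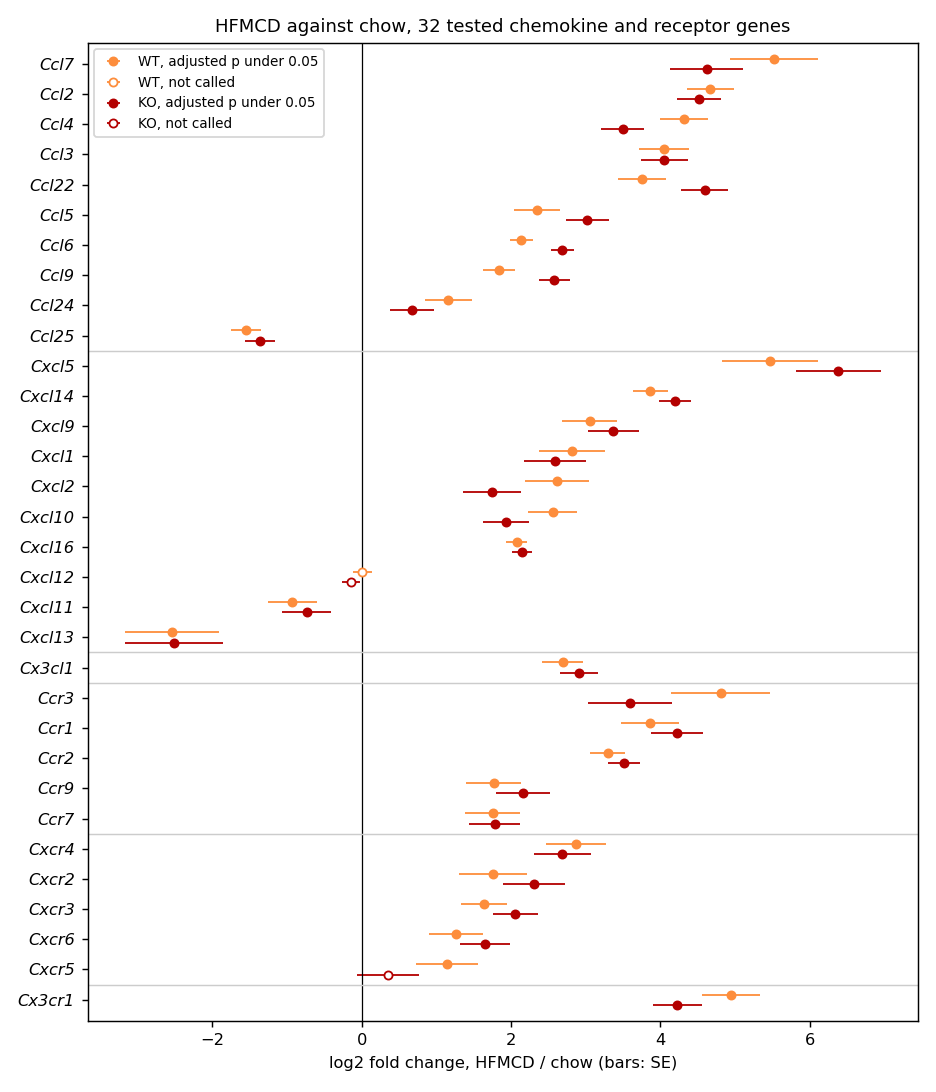
Log2 fold change of HFMCD against chow for the 32 tested genes in WT and KO livers, with ligands above receptors; bars are standard errors, filled points have an adjusted p under 0.05 and open points do not. Most points lie right of 0, while Ccl25, Cxcl11 and Cxcl13 lie left of it and Cxcl12 lies at it.

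Several CC ligands attract monocytes. Ccl7, a ligand of Ccr1 and Ccr2 (chromosome 11, 82045712 to 82047525, plus strand, GRCm38), was nearly silent on chow. It had a median of 0 CPM and a highest value of 0.0976 CPM in the WT chow libraries, and a median of 0.0545 and a highest value of 0.134 CPM in the KO chow libraries. Its HFMCD values were 0.824, 2.11, 1.57 and 1.13 CPM in WT and 1.27, 1.07, 2.21 and 1.51 CPM in KO. All 8 HFMCD libraries therefore lay above all 13 chow libraries. The log2 fold change was 5.52 (SE 0.59) in WT and 4.62 (SE 0.49) in KO. With only 3 reads in the WT chow group, the reads of WT give a ratio of 56.0 with an exact 95% interval from 18.8 to 275. Without WT chow replicate 1 the log2 fold change in WT was 6.49.

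Ccl2, the main ligand of Ccr2 (chromosome 11, 82035571 to 82037453, plus strand), lay between 0.168 and 0.635 CPM with a median of 0.278 CPM in WT on chow, and between 0.109 and 0.639 CPM with a median of 0.357 CPM in KO on chow. HFMCD libraries had 5.36, 10.8, 9.44 and 10.7 CPM in WT and 8.70, 6.54, 10.8 and 7.25 CPM in KO. The diet groups did not overlap, and both genotypes covered the same range on each diet. Its log2 fold change was 4.66 (SE 0.31) in WT and 4.52 (SE 0.30) in KO.

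Ccl3 and Ccl4, neighbouring genes for ligands of Ccr1 and, in the case of Ccl4, of other receptors, went up alongside. Ccl3 had 0.101 to 0.213 CPM (median 0.178) in WT and 0.0496 to 0.312 CPM (median 0.179) in KO on chow. The HFMCD livers had 2.51, 3.79, 2.22 and 3.04 CPM in WT and 2.26, 2.21, 2.61 and 4.38 CPM in KO. Its log2 fold change was 4.05 in both genotypes (SE 0.33 in WT and 0.31 in KO). Ccl4 had 0.0944 to 0.246 CPM (median 0.156) in WT and 0.0535 to 0.402 CPM (median 0.211) in KO on chow. Under HFMCD, Ccl4 had 2.18, 3.87, 2.82 and 3.65 CPM in WT and 2.58, 1.84, 3.08 and 3.10 CPM in KO, with log2 fold changes of 4.31 (SE 0.33) and 3.49 (SE 0.29). For both genes the diet groups did not overlap.

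Ccl6 and Ccl9, rodent ligands of Ccr1 that myeloid cells make, were already abundant on chow and carried most of the CC ligand reads. Ccl9 averaged 38.4 CPM ± 11.5 (SD, n = 6) in WT on chow and 137 CPM ± 6.77 (SD, n = 4) in WT on HFMCD, a log2 fold change of 1.84 (SE 0.21). Ccl6 averaged 15.5 CPM ± 4.01 (SD, n = 6) and 68.1 CPM ± 5.17 (SD, n = 4), a log2 fold change of 2.14 (SE 0.16). Smaller in level were Ccl5, a T cell product that attracts T cells and monocytes (log2 fold change 2.35, SE 0.30, in WT and 3.02, SE 0.29, in KO), and Ccl22, a dendritic cell and macrophage product (3.75, SE 0.32, in WT and 4.59, SE 0.31, in KO).

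Ccl24, a ligand of the eosinophil receptor Ccr3, moved least among the CC ligands that rose. It had 0.783 to 2.50 CPM (median 1.47) in WT and 1.43 to 3.13 CPM (median 1.92) in KO on chow, and on HFMCD 3.75, 3.01, 4.88 and 3.28 CPM in WT and 2.58, 1.54, 6.08 and 3.21 CPM in KO. The groups were apart in WT and overlapped in KO. The log2 fold change was 1.16 (SE 0.31, edgeR adjusted p = 0.00259) in WT and 0.68 (SE 0.30, edgeR adjusted p = 0.0488) in KO. The call in KO was lost in 16 of 30 alternatives, among them limma-voom (0.53, adjusted p = 0.0962). Without KO HFMCD replicate 3 the log2 fold change was 0.22 (edgeR adjusted p = 0.516), the highest adjusted p of these alternatives.

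The CXC ligands that attract neutrophils through Cxcr2 rose together. Cxcl5 (chromosome 5, 90759360 to 90761624, plus strand) had no read in most chow libraries, with a highest value of 0.0982 CPM in WT and 0.0912 CPM in KO. On HFMCD it had 0.70, 1.29, 1.98 and 1.5 CPM in WT and 2.54, 1.36, 4.42 and 2.83 CPM in KO. The diet groups did not overlap. The reads give a ratio of 54.1 in WT (exact 95% interval 18.1 to 265) and 99.4 in KO (exact 95% interval 38.4 to 367), and the log2 fold changes were 5.47 (SE 0.64) and 6.38 (SE 0.57). Leaving out WT chow replicate 6 gave 6.47 in WT. All KO chow reads of Cxcl5 were in replicates 1 and 7, which stood apart; without replicate 7 the log2 fold change in KO was 6.98, and without both it was 8.95, a fitted value against a group with no read and no bound. Cxcl1 averaged 2.57 CPM ± 1.65 (SD, n = 6) in WT on chow and 18.3 CPM ± 2.43 (SD, n = 4) in WT on HFMCD, a log2 fold change of 2.82 (SE 0.44). Cxcl2 had a log2 fold change of 2.61 (SE 0.43) in WT and 1.75 (SE 0.39) in KO.

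Cxcl9 and Cxcl10, which interferon-gamma induces and which bind Cxcr3, rose as well, whereas their neighbour Cxcl11 did not. Cxcl9 averaged 4.25 CPM ± 1.44 (SD, n = 6) in WT on chow and 35.2 CPM ± 12.2 (SD, n = 4) in WT on HFMCD (log2 fold change 3.05, SE 0.37). In the KO HFMCD libraries it had 34.0, 20.5, 80.5 and 93.8 CPM. Cxcl10 had a log2 fold change of 2.56 (SE 0.33) in WT and 1.93 (SE 0.31) in KO. Cxcl14, made by epithelia and fibroblasts, had 0.589 to 1.18 CPM (median 0.788) in WT and 0.655 to 1.6 CPM (median 0.980) in KO on chow. HFMCD libraries had 11.8, 12.6, 11.7 and 15.3 CPM in WT and 14.3, 19.3, 21 and 25.0 CPM in KO. No HFMCD library came near a chow library, and the log2 fold change was 3.86 (SE 0.23, edgeR adjusted p = 2.01e-12) in WT and 4.19 (SE 0.21, edgeR adjusted p = 6.57e-14) in KO. Cxcl16, the transmembrane ligand of Cxcr6, averaged 9.07 CPM ± 1.90 (SD, n = 6) and 38.2 CPM ± 5.71 (SD, n = 4) in WT (log2 fold change 2.07, SE 0.14).

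Promoter sequence was at hand for 28 of the 39 genes in RefSeq, as windows of 250 bases before to 50 bases after the start (GRCm38.p6). Of these, 2 genes had a second window, which made 30. They were searched on both strands for the kappaB motif GGGNNNTTCC of NF-kappaB, the interferon response motif GAAANNGAAA, and the AP-1 motif TGANTCA. The kappaB motif was found in 7 of 30 windows (23.3%), beside 5.56% of all 32851 windows. With 1 window a gene, the one nearest its start, it was found in 6 genes: Ccl9, Ccl20, Cxcl1, Cxcl2, Cxcl10 and Ccr3. The interferon motif was found in 3 of the 30 windows (10.0%, beside 3.44%), those of Ccl19, Cxcl10 and Cxcl14, and the AP-1 motif in 5 (16.7%, beside 7.81%). A match is a string of letters and does not show that a factor binds. The stretches that hold the kappaB matches of 4 ligands that rose on HFMCD are shown 5′ to 3′ on the strand of the gene, with kappaB and interferon motif matches in capitals. Those of Cxcl1 and Cxcl2 hold overlapping matches on both strands. The first match of Cxcl1 and that of Ccl9 lie on the strand opposite the gene.
Cxcl1 (chr5:90891135-90891194, plus strand): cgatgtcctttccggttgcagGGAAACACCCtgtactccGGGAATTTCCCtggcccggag
Cxcl2 (chr5:90903789-90903848, plus strand): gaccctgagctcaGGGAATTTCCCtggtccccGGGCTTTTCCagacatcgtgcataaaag
Cxcl10 (chr5:92348970-92349109, minus strand): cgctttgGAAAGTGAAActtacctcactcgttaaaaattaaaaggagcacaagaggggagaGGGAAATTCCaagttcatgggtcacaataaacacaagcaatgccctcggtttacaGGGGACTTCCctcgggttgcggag
Ccl9 (chr11:83578652-83578696, minus strand): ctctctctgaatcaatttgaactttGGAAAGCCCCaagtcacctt

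Cxcl12, the ligand that keeps blood cell precursors and lymphocytes in place through Cxcr4, was not called in either genotype. It lay between 221 and 411 CPM (median 351) in WT and between 311 and 441 CPM (median 385) in KO on chow. On HFMCD it had 340.4, 333.7, 342.1 and 336.0 CPM in WT and 327.3, 354.4, 331.4 and 344.6 CPM in KO, inside the range of the chow libraries. Its log2 fold change was 0.01 (SE 0.13, edgeR adjusted p = 0.941) in WT and -0.14 (SE 0.12, edgeR adjusted p = 0.299) in KO.

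The 3 ligands that fell are known for guiding lymphocytes. Cxcl13, the B cell attractant that acts on Cxcr5, had 3.39 to 28.5 CPM (median 14.8) in WT and 3.92 to 8.63 CPM (median 6.42) in KO on chow. HFMCD libraries had 0.948, 5.0, 0.403 and 3.61 CPM in WT and 1.11, 0.588, 1.70 and 1.32 CPM in KO. WT overlapped between the diets and KO did not. The log2 fold change was -2.54 (SE 0.63, edgeR adjusted p = 0.00185) in WT and -2.51 (SE 0.65, edgeR adjusted p = 0.00232) in KO.

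Ccl25, a ligand of Ccr9 known from gut and thymus, had 3.19 to 4.53 CPM (median 3.94) in WT and 2.14 to 4.46 CPM (median 2.86) in KO on chow. It had 1.24, 1.33, 1.41 and 1.34 CPM in WT and 1.15, 0.846, 1.48 and 1.40 CPM in KO on HFMCD. Every HFMCD library lay below every chow library, and the log2 fold change was -1.55 (SE 0.21, edgeR adjusted p = 7.86e-07) in WT and -1.36 (SE 0.20, edgeR adjusted p = 2.75e-06) in KO. Cxcl11, which GENCODE lists as a polymorphic pseudogene, had 2.01 to 6.18 CPM (median 3.68) in WT and 1.25 to 3.74 CPM (median 2.46) in KO on chow. On HFMCD it had 2.06, 2.66, 1.53 and 2.03 CPM in WT and 1.11, 1.73, 1.85 and 0.982 CPM in KO, so that the diets overlapped in both genotypes. Its log2 fold change was -0.93 (SE 0.33, edgeR adjusted p = 0.016) in WT and -0.73 (SE 0.33, edgeR adjusted p = 0.0488) in KO. The call in WT was lost without WT HFMCD replicate 3 (-0.80, edgeR adjusted p = 0.059) and without WT chow replicate 5 (-0.71, edgeR adjusted p = 0.0588). The call in KO was lost in 19 of 30 alternatives. In 7 of the 39 genes some exon bases overlap an antisense gene: Elavl1 for Ccl25, Gm2673 for Cxcl11, Art3 for Cxcl10, Zmynd15 for Cxcl16, AC165425.1 and Slc6a20a for Ccr9, Bcl9l for Cxcr5 and Gm33858 for Cx3cr1. The strand setting of the counting was not given in the sources used here, and without it reads from both genes of such a pair cannot be told apart.

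**Figure D2:**
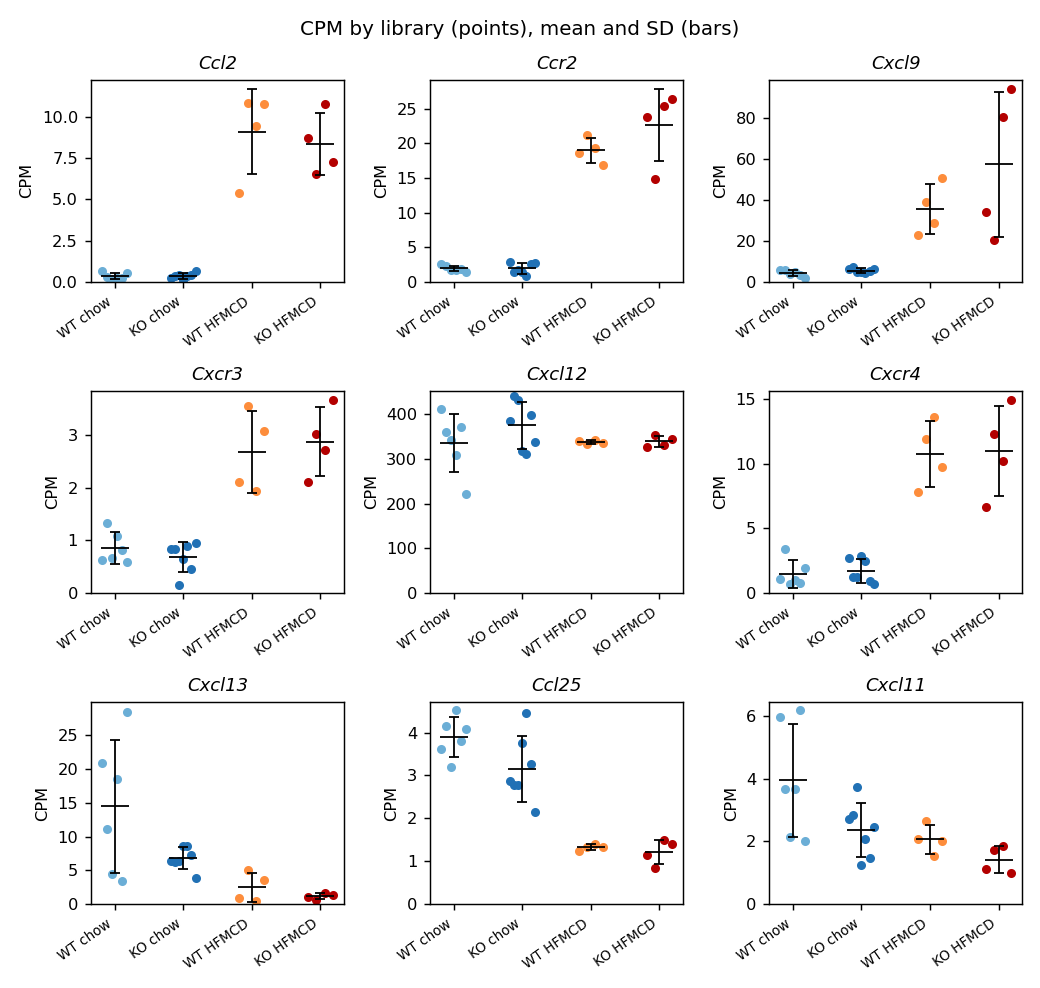
CPM of 3 ligand and receptor pairs (Ccl2 and Ccr2, Cxcl9 and Cxcr3, Cxcl12 and Cxcr4) and of the 3 ligands that fell, in every library; each point is 1 library, and black bars are the mean and SD of a group. Cxcr4 is higher on HFMCD while Cxcl12 stays between 221 and 441 CPM, and the chow libraries of Cxcl13 run from 3.39 to 28.5 CPM.

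The CX3C pair rose on both sides. Cx3cl1, a membrane-bound ligand of endothelium and epithelium, had 0.480 to 1.32 CPM (median 0.928) in WT and 0.655 to 2.40 CPM (median 0.962) in KO on chow. Its HFMCD values were 5.19, 6.45, 5.37 and 5.59 CPM in WT and 7.43, 10.0, 7.86 and 9.29 CPM in KO, with log2 fold changes of 2.69 (SE 0.28) and 2.91 (SE 0.26). Its receptor Cx3cr1, of monocytes and macrophages (chromosome 9, 119901616 to 120069879, minus strand), had 0.160 to 0.944 CPM (median 0.345) in WT and 0.298 to 1.90 CPM (median 0.802) in KO on chow. The HFMCD livers had 15.0, 14.7, 13.8 and 9.73 CPM in WT and 20.7, 17.2, 15.9 and 16.4 CPM in KO. For ligand and receptor alike, every HFMCD library exceeded every chow library. The log2 fold change of Cx3cr1 was 4.94 (SE 0.39, edgeR adjusted p = 8.17e-10) in WT and 4.23 (SE 0.33, edgeR adjusted p = 4.63e-10) in KO, and 4.88 in KO without KO chow replicates 1 and 7.

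Receptors of monocytes came next. Ccr2 had 1.42 to 2.54 CPM (median 1.84) in WT and 0.833 to 2.86 CPM (median 1.76) in KO on chow, and on HFMCD 18.7, 21.2, 19.4 and 16.9 CPM in WT and 23.8, 14.9, 25.3 and 26.4 CPM in KO. Its log2 fold change was 3.29 (SE 0.23) in WT and 3.51 (SE 0.22) in KO. Ccr1, shared by many of the CC ligands, had 0 to 0.426 CPM (median 0.170) in WT and 0.0993 to 0.502 CPM (median 0.267) in KO on chow, and on HFMCD 3.30, 2.81, 2.90 and 2.59 CPM in WT and 3.97, 4.96, 5.83 and 4.91 CPM in KO. Both receptors were apart between the diets in each genotype. The log2 fold change of Ccr1 was 3.86 (SE 0.39) in WT and 4.22 (SE 0.35) in KO.

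Ccr3, the receptor of eosinophils, had at most 0.0976 CPM in WT and 0.149 CPM in KO on chow, and on HFMCD 2.02, 0.508, 1.05 and 0.811 CPM in WT and 1.07, 0.846, 0.507 and 1.25 CPM in KO. The diet groups were again apart. The reads of WT give a ratio of 32.2 (exact 95% interval 12.2 to 120), and the log2 fold change was 4.81 (SE 0.66) in WT, 5.4 without WT chow replicate 1, and 3.59 (SE 0.57) in KO. Eosinophil markers were scarce: the 4 genes of that list summed to at most 0.405 CPM in a chow library and to 3.25 to 5.29 CPM in an HFMCD library, with Epx at 0 on chow and at most 0.247 CPM on HFMCD. Siglecf and Prg2, the 2 tested, were called higher on HFMCD in both genotypes, from at most 0.304 and 0.0892 CPM in a chow library. With so few chow reads they passed the filter through their HFMCD reads, so that their rise was built into it. The part of these markers in the rise of Ccr3 was not tested.

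Receptors of lymphocytes were also higher. Cxcr4 had 0.671 to 3.41 CPM (median 1.03) in WT and 0.684 to 2.83 CPM (median 1.24) in KO on chow, and on HFMCD 7.79, 11.9, 13.6 and 9.73 CPM in WT and 6.67, 12.3, 10.2 and 14.9 CPM in KO. With a log2 fold change of 2.87 (SE 0.41) in WT and 2.69 (SE 0.38) in KO, it differed from its ligand Cxcl12, whose level stayed inside the chow range. Cxcr3, of activated T cells, averaged 0.854 CPM ± 0.295 (SD, n = 6) in WT on chow and 2.67 CPM ± 0.778 (SD, n = 4) on HFMCD (log2 fold change 1.64, SE 0.31, in WT and 2.06, SE 0.30, in KO). Cxcr6, of liver-resident T and NK cells, averaged 0.992 CPM ± 0.374 (SD, n = 6) and 2.40 CPM ± 1.22 (SD, n = 4), with log2 fold changes of 1.26 (SE 0.36) in WT and 1.65 (SE 0.34) in KO. Ccr7, which leads dendritic and T cells to lymph nodes, averaged 0.703 CPM ± 0.399 (SD, n = 6) and 2.38 CPM ± 0.612 (SD, n = 4), with log2 fold changes of 1.75 (SE 0.37) and 1.78 (SE 0.35).

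Ccr9 averaged 0.416 CPM ± 0.166 (SD, n = 6) in WT on chow and 1.44 CPM ± 0.240 (SD, n = 4) on HFMCD (log2 fold change 1.77, SE 0.37, in WT and 2.16, SE 0.36, in KO), while its ligand Ccl25 fell. Antisense genes cover 1954 of the 10260 exon bases of Ccr9, and Gm17200 shares 269 bases on the same strand, so its reads are uncertain. Cxcr2, the neutrophil receptor, averaged 0.283 CPM ± 0.153 (SD, n = 6) and 0.975 CPM ± 0.195 (SD, n = 4) in WT (log2 fold change 1.75, SE 0.46, and 2.30, SE 0.42, in KO). Cxcr5, the B cell receptor of Cxcl13, had a log2 fold change of 1.14 (SE 0.42) in WT and 0.36 (SE 0.42, edgeR adjusted p = 0.454) in KO. It passed the filter only through its HFMCD reads, so its call in WT is a description. In WT the call on Cxcr5 was lost without WT HFMCD replicate 1 (edgeR adjusted p = 0.0706), without WT HFMCD replicate 3 (edgeR adjusted p = 0.0619) and without the 4 chow libraries rich in Dmbt1 (edgeR adjusted p = 0.098).

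Of 24 pairs of a ligand and its receptor, 19 had both members tested. In 13 of these a member had passed the filter only through its HFMCD reads. Of the 6 other pairs, 4 had both members called higher in WT on HFMCD, and with the 13 included there were 15. In the rest, 3 paired a ligand that fell with a receptor that rose (Cxcl13 and Cxcr5, Ccl25 and Ccr9, Cxcl11 and Cxcr3), and Cxcl12 with Cxcr4 paired an uncalled ligand with a receptor that rose. All 11 tested receptors and 17 of 21 tested ligands were called higher in WT, beside 29.0% of all tested genes. These counts include the 12 genes that passed the filter only through their HFMCD reads. The receptors among them were Ccr1, Ccr3, Ccr9, Cxcr2 and Cxcr5. The pair counts follow from the calls of single genes and do not test a match of ligand with receptor. Across libraries of 1 diet, 38 relations of log2 CPM were computed, and 0 had a Benjamini-Hochberg adjusted p under 0.05. By Pearson p the nearest were on HFMCD (n = 8, exact permutation tests, two-sided). Cxcl5 and Cxcr2 had Pearson r = 0.875 (p = 0.0031, adjusted p = 0.0589) and Spearman rho = 0.857 (p = 0.0107, adjusted p = 0.148), and r = 0.918 over the 6 libraries left without the 2 farthest from the median of Cxcl5. Over the 4 libraries of each genotype, given with no test, its r was 0.785 in WT and 0.871 in KO. Ccl25 and Ccr9 had r = 0.853 (exact permutation p = 0.00218, adjusted p = 0.0589) and rho = 0.833 (exact permutation p = 0.0154, adjusted p = 0.148), and r = 0.701 over 6 libraries. Its r was 0.292 within WT and 0.959 within KO. By Spearman the smallest p on HFMCD was that of Cxcl16 with Cxcr6 (rho = 0.881, exact permutation p = 0.00724, adjusted p = 0.148), and on chow (n = 13) it was the same pair (rho = 0.665, permutation p = 0.0156, adjusted p = 0.148). For Cxcl16 with Cxcr6, Pearson r was 0.801 on HFMCD (exact permutation p = 0.0148, adjusted p = 0.141) and 0.514 on chow (permutation p = 0.0725, adjusted p = 0.459), and 0.867 and 0.647 without the 2 farthest libraries. By Pearson the smallest p on chow was that of Cx3cl1 with Cx3cr1, with r = 0.663 (permutation p = 0.0117, adjusted p = 0.141) and rho = 0.462 (permutation p = 0.116, adjusted p = 0.441), and r = 0.288 without the 2 farthest libraries. The median reads behind Cx3cr1 on chow were 9, so that relation rests on few reads.

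**Figure D3:**
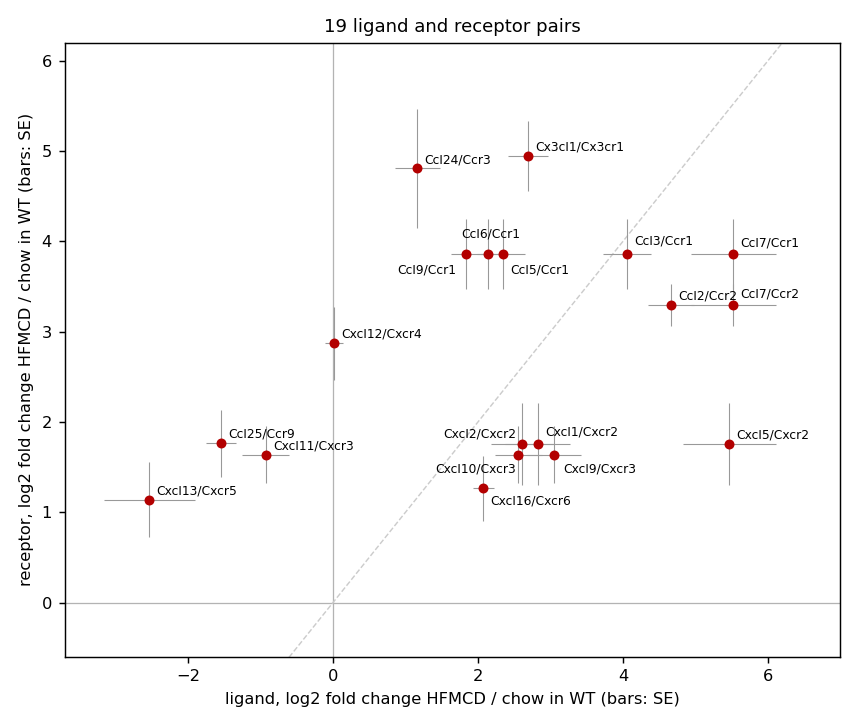
Log2 fold change of HFMCD against chow in WT for 19 ligand and receptor pairs, ligand on the horizontal and receptor on the vertical axis; bars are standard errors, the dashed line marks equal change, and receptors and ligands that belong to several pairs appear more than once. All receptors lie above 0, while Cxcl13, Ccl25 and Cxcl11 lie left of 0 and Cxcl12 at it.

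Other genes of the system were counted from lists. Over all tested genes, 29.0% were called higher and 33.6% lower in WT, and 33.7% higher and 36.0% lower in KO. The lists were not split by the filter on chow alone, so that a rise of genes with few chow reads was built into it. Of 23 further chemokines and chemokine receptors, 12 were tested; 8 were higher and 2 lower on HFMCD in WT, and 8 higher and 1 lower in KO. Among them were Ccrl2, a receptor-like protein that presents chemerin (log2 fold change 2.59 in WT), Cmklr1, the signalling receptor of chemerin (1.67), Pf4, a platelet and macrophage chemokine (2.94), and Ccl27a, which fell (-1.78). Of 25 genes that relay the signal inside leukocytes, 21 were higher and 1 lower in WT, and 19 were higher and 2 lower in KO. In WT they included Pik3cg, a kinase that Gbetagamma activates (log2 fold change 2.92), its regulatory subunit Pik3r5 (2.32), and the Rac activators Dock2 (2.55) and Elmo1 (2.35). A list of 23 genes around chemokine induction held cytokines, their receptors, transcription factors and the NF-kappaB inhibitors Nfkbia and Tnfaip3. Of these, 21 were tested and 12 rose in WT, while 12 rose and 2 fell in KO. The smallest p-values in WT were those of the transcription factors Atf3 (3.75), Irf5 (2.03) and Irf8 (1.77) and of Tnfaip3 (2.35), which restrains NF-kappaB. In that list Jun (0.94, edgeR adjusted p = 0.0388) and Atf3 (0.61, edgeR adjusted p = 0.0495) were higher in KO than WT on chow.

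Markers of several leukocytes were higher on HFMCD, and those of dendritic cells were mixed. Over all tested genes, 29.0% were called higher in WT and 33.7% in KO. The markers were not split by the filter on chow alone. A rise of those with few chow reads, such as Mmp8 (at most 0.357 CPM in a chow library), was built into the filter. The 5 markers of all macrophages summed to 85.8 to 243 CPM in WT on chow and 1064 to 1293 CPM in WT on HFMCD, and all 5 were called higher. The 6 markers of recruited macrophages summed to 30.5 to 58.7 CPM and to 907 to 1110 CPM, and all 6 were called higher. Gpnmb, one of them, averaged 0.534 CPM ± 0.148 (SD, n = 6) in WT on chow and 459 CPM ± 60.5 (SD, n = 4) in WT on HFMCD. Of 5 Kupffer cell markers, 3 were called higher in each genotype. Of 5 dendritic cell markers, 3 were called higher and 2 lower in each genotype, and they summed to 15.2 to 22.2 CPM in WT on chow and 13.7 to 17.7 CPM in WT on HFMCD. Clec9a, of conventional dendritic cells, had a log2 fold change of -1.32 in WT and -1.95 in KO. Those that rose were Flt3 (2.61 in WT and 2.46 in KO), Siglech (2.75 and 2.93) and Cd209a (3.14 and 1.83). T and NK cell markers, 9 in all, were called higher in WT, where they summed to 2.57 to 7.46 CPM on chow and 12.3 to 25.3 CPM on HFMCD, and 7 were called higher in KO. Of 6 neutrophil markers, 5 were tested and all 5, Mmp8 among them, were called higher in each genotype. The defining marker Ly6g had at most 0.227 CPM in any library. B cell markers were called higher for 3 of 5 genes in WT, and for 0 higher and 1 lower in KO (their sum ran from 3.0 to 24.7 CPM over all libraries). The part of any of these markers in the chemokine and receptor values was not tested.

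Loss of Mboat7 in hepatocytes called 0 of the 32 genes on chow, where 2.17% of all tested genes were called, and 0 on HFMCD, where 0.319% were called. When the KO effect was compared between diets, 0 of the 32 were called and 0.0% of all genes. At an unadjusted p under 0.05 there were 5 genes on chow, 4 on HFMCD and 2 for the difference, and the smallest adjusted p was 0.15, 0.264 and 0.394. Libraries of KO and WT did not overlap for 0 of the 32 genes on chow (0.657% of all genes) and for 3 on HFMCD (8.62% of all genes), each higher in KO: Cx3cl1, Ccr1 and Cx3cr1.

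**Figure D4:**
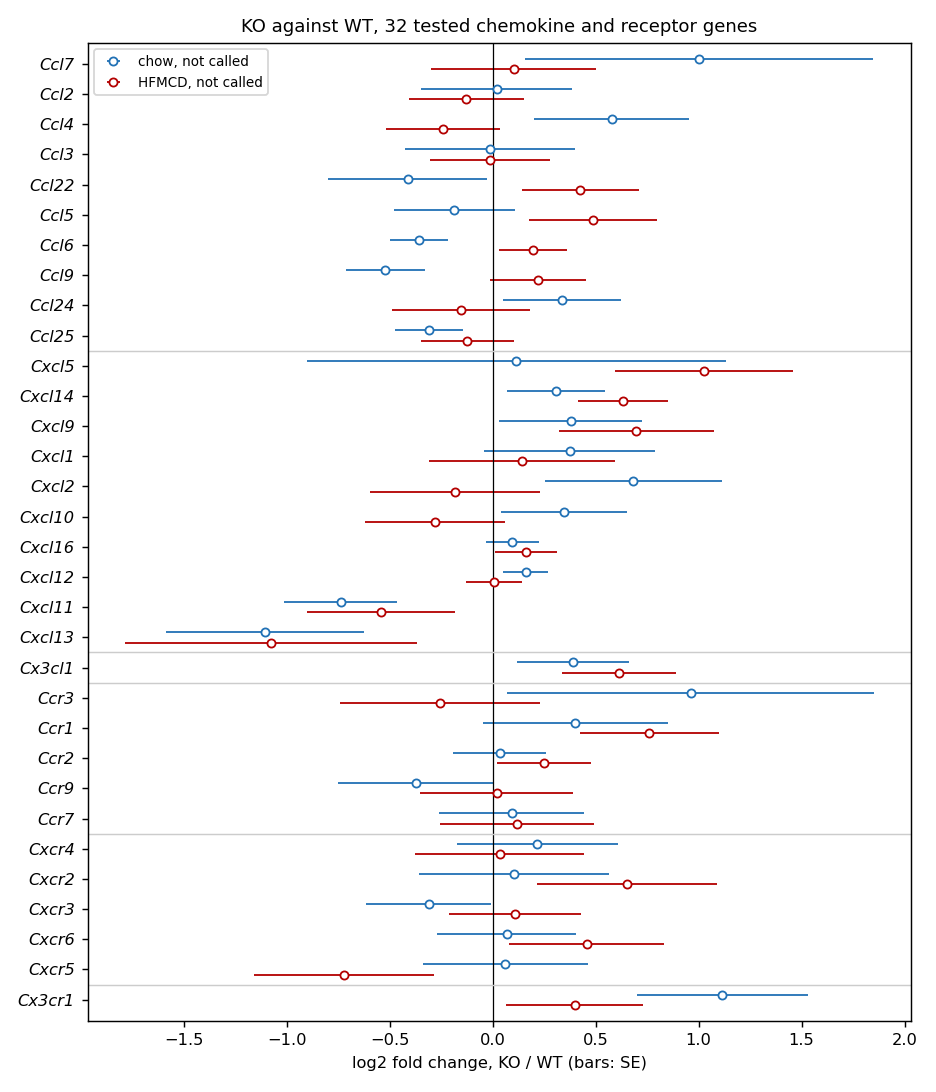
Log2 fold change of KO against WT on chow and on HFMCD for the 32 tested genes, in the order of the plot of the diet effect; bars are standard errors and no point has an adjusted p under 0.05. Ccl9 and Ccl6 lie left of 0 on chow and right of it on HFMCD, and Cxcl13 lies left of 0 on both diets.

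On chow the smallest p-values belonged to Ccl9, Cxcl11, Cx3cr1 and Ccl6. Ccl9 had 24.5 to 51.5 CPM (median 40.1) in WT and 20.3 to 42.1 CPM (median 23.4) in KO (log2 fold change -0.52, SE 0.19, edgeR adjusted p = 0.15). The groups overlapped. Ccl6 had 9.28 to 19.7 CPM (median 15.8) in WT and 10.5 to 16 CPM (median 11.5) in KO (log2 fold change -0.36, SE 0.14, edgeR adjusted p = 0.179). Without WT chow replicate 3, where 611 of 15639 genes were called, Ccl6 was called at -0.46 (edgeR adjusted p = 0.0294, over all alternatives 0.0294 to 0.384). Cxcl11 was 2.01 to 6.18 in WT and 1.25 to 3.74 CPM in KO (log2 fold change -0.74, SE 0.27, edgeR adjusted p = 0.15). For Cxcl13, whose p came next, the log2 estimate was -1.10 with SE 0.48 (adjusted p = 0.233 by edgeR).

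Cx3cr1 was the one of these with a positive estimate in KO on chow, 1.11 in log2 units with SE 0.41 (adjusted p = 0.154 by edgeR). DESeq2, which called 705 of 15677 genes on chow, called it (1.12, adjusted p = 0.043, over all alternatives 0.043 to 0.773). The highest values were those of KO chow replicates 1 and 7, at 1.90 and 1.55 CPM, which are the libraries rich in Dmbt1, Krt19 and, for replicate 7, Ttn. Without both, the log2 fold change of Cx3cr1 was 0.45 (edgeR adjusted p = 0.598), and without all 4 chow libraries rich in Dmbt1 it was 0.33 (edgeR adjusted p = 0.773). For its ligand Cx3cl1, whose highest chow value was also that of KO chow replicate 1, the KO estimate on chow was 0.39 in all libraries and 0.00041 without both. That of Cxcl5 was 0.11 in all libraries and -2.46 without both, where no KO chow read was left (edgeR adjusted p = 0.451).

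On HFMCD the smallest p-values belonged to Cxcl14, Cxcl5, Ccr1 and Cx3cl1, each with a positive estimate in KO. Cxcl14 (11.8, 12.6, 11.7 and 15.3 CPM in WT and 14.3, 19.3, 21 and 25.0 CPM in KO) had a log2 estimate of 0.63 with SE 0.22 (adjusted p = 0.264 by edgeR). Cxcl5 (0.70, 1.29, 1.98 and 1.5 CPM in WT and 2.54, 1.36, 4.42 and 2.83 CPM in KO) had one of 1.03 with SE 0.43 (adjusted p = 0.413 by edgeR). In both genes WT and KO overlapped. Ccr1 (2.59 to 3.30 in WT and 3.97 to 5.83 CPM in KO) had a log2 estimate of 0.76 with SE 0.34 (adjusted p = 0.448 by edgeR), and Cx3cl1 (5.19 to 6.45 in WT and 7.43 to 10.0 CPM in KO) had one of 0.61 with SE 0.27 (adjusted p = 0.455 by edgeR). In both the groups did not overlap, and so it was for Cx3cr1 (9.73 to 15.0 in WT and 15.9 to 20.7 CPM in KO, log2 fold change 0.40, SE 0.33, edgeR adjusted p = 0.763). Fits to the HFMCD libraries alone called Ccr1 (0.75, edgeR adjusted p = 0.0372) and Cx3cl1 (0.60, edgeR adjusted p = 0.0405). They called 296 of 14424 genes, beside 50 of 15677 in the main fit. With limma-voom, Ccr1 (0.72, adjusted p = 0.0409) and Cxcl14 (0.53, adjusted p = 0.0348) were called. That method also called more of the 15677 genes than the main fit. Bile duct markers moved alongside: the 6 genes summed to 189 to 231 in WT and 530 to 779 CPM in KO on HFMCD, and 4 of them were called higher in KO. Their part in the values of Cx3cl1, Cxcl5 and Cxcl14 was not tested.

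**Figure D5:**
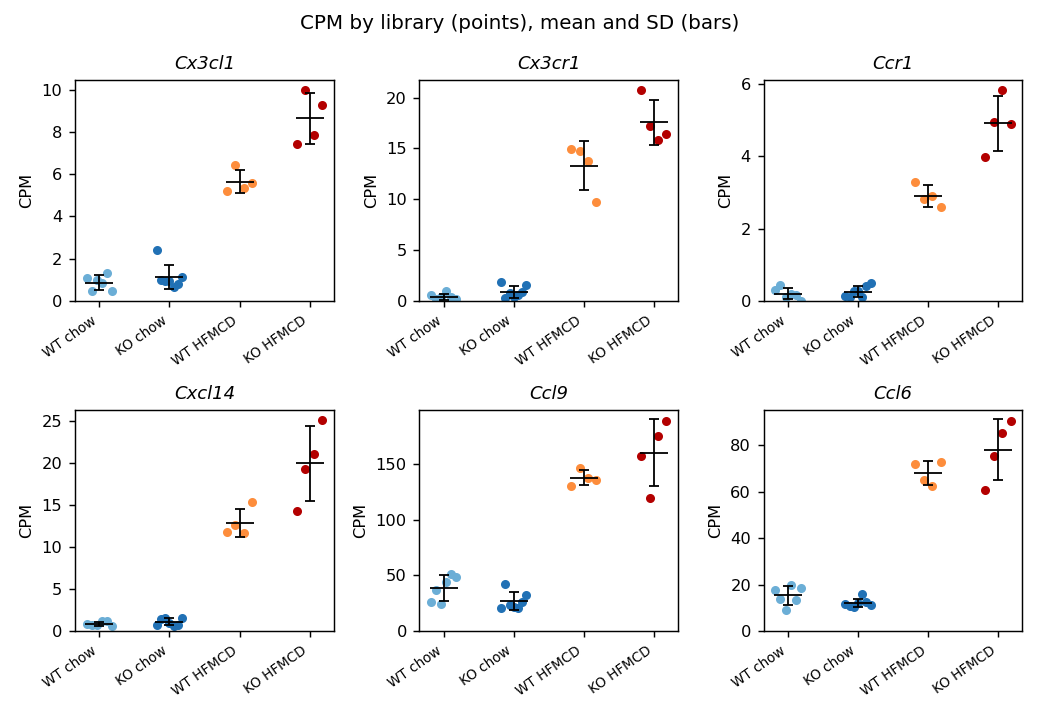
CPM of 6 of the 8 genes named for the smallest p-values of Mboat7 loss (Cxcl11 and Cxcl5 are not drawn), in every library; each point is 1 library, and black bars are the mean and SD of a group. On HFMCD all 4 KO libraries of Cx3cl1, Cx3cr1 and Ccr1 lie above all 4 WT libraries, and on chow KO overlaps WT.

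For the difference of the KO effect between diets, the smallest p-values belonged to Ccl6 and Ccl9. Ccl6 had an estimate of 0.55 (SE 0.22, edgeR adjusted p = 0.394), from -0.36 on chow to 0.20 (SE 0.17) on HFMCD. Ccl9 had one of 0.74 (SE 0.30, edgeR adjusted p = 0.401), from -0.52 on chow to 0.22 (SE 0.23) on HFMCD. For Ccl4 it was -0.82 (SE 0.47, edgeR adjusted p = 0.59), and for Ccl22 it was 0.84 (SE 0.48, edgeR adjusted p = 0.594). None of the 32 genes passed the threshold for this difference, and these fits share the 4 WT and 4 KO HFMCD libraries and the 13 chow libraries with the other comparisons.

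The 7 genes that had too few reads were low throughout. Ccl20, the ligand of Ccr6, had 0 reads in all 13 chow libraries and 11 reads in each HFMCD group. Against a floor of 3 reads over the chow group, that is a ratio of 4.37 in WT and 4.89 in KO. These ratios leave out the counting error of the 11 reads, which ran from 1 to 7 a library in WT and 0 to 5 in KO. Ccl8 averaged 0.0170 CPM in WT on chow and 0.120 CPM in WT on HFMCD. Ccl17 averaged 0.0510 and 0.162 CPM, Ccl28 averaged 0.234 and 0.293 CPM, Ccl11 averaged 0.0280 and 0.00977 CPM, and Ccr6 averaged 0.00818 and 0.100 CPM in the same groups. Ccl19, a ligand of Ccr7, had 0 reads in all 21 libraries, which allows a level of up to 0.109 to 0.179 CPM in a library. GENCODE has 2 entries of that symbol and similar pseudogenes beside it, and the counting could have split or dropped its reads.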

How the data were processed

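RNA-seq of whole mouse liver was available for 21 libraries in 4 groups of genotype and diet. PBS perfusion, storage in RNAlater and a total RNA kit preceded Illumina library preparation, per the labels' protocols. The authors deposited raw read counts per gene symbol for each library, with no normalization. The submitters' processing notes name featureCounts 1.6.1, STAR 2.6.1d and CASAVA 2.17, with GRCm38 as the build; annotation, strand setting and read filters were not given in the sources used here. All 55418 symbols matched GENCODE M21, the source of positions and exon lengths.

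The tests used edgeR 4.0.16 (R 4.3.3): filterByExpr by group (15677 genes kept), TMM scaling, 1 robust quasi-likelihood model of 4 group means over all libraries with no covariate, and two-sided F tests of 5 contrasts, with Benjamini-Hochberg adjustment over all genes. Each standard error was derived from the F statistic and its log2 fold change. CPM used library totals over tested genes, scaled by TMM. Relations of ligand and receptor used log2 CPM with a prior count of 2. Alternatives used DESeq2 1.42.0, limma 3.58.1 (voom), upper-quartile or RLE scaling, all genes unfiltered, 1 CPM in 4 libraries, only the groups compared, each library left out, and the libraries rich in Dmbt1 left out. The fits were tested on simulated data.

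Values per library were given for the 4 genes with the smallest p of each KO contrast and, among genes called in both genotypes with at least 1 CPM, for the 8 largest and 4 smallest diet changes in WT; tested receptors were all described. The members and lists were chosen with earlier results of these data known. No library pair was identical (0 of 48 checked). Labels do not state that libraries of a group are separate mice beyond an animal number in each title, and replicate numbers follow accession order, so p-values measure the spread between these libraries. Exact intervals and floors cover counting error only, since reads were not reduced to molecules.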

Additional observations from a re-analysis of the deposited data

Results flagged for a closer look

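In 4 of the 128 sets of a gene in a group, 1 library lay far from the rest of its group; chance gives about 1 in 20 such sets. Ccl6 had 16 CPM in KO chow replicate 5, above 10.5 to 12.5 CPM in the other KO chow libraries. Cx3cl1 had 2.40 CPM in KO chow replicate 1, above 0.655 to 1.14 CPM in the others. Ccr7 had 0.163 CPM in KO chow replicate 4, below 0.745 to 1.01 CPM in the others. Cxcr2 had 0.735 CPM in KO HFMCD replicate 2, below 1.79 to 1.81 CPM in the others of its group. KO chow replicate 1 is one of the libraries rich in Dmbt1 and Krt19, and the part of that in its Cx3cl1 value was not tested.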

How the results depend on the processing

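Counts of called genes held within 29 to 33 in WT and 28 to 32 in KO for the diet contrasts over all settings, and 29 of 31 and 28 of 30 genes were called under every alternative. The exceptions were Cxcl11 and Cxcr5 in WT and Cxcl11 and Ccl24 in KO. All these counts include genes that passed the main filter only through their HFMCD reads. No called diet change was reversed in any alternative run. Estimates that were not called did change sign: over the 32 genes, 58 of 947 estimates for KO on chow (11 genes), 40 of 959 on HFMCD (9 genes), 44 of 927 for the difference (11 genes) and 3 of 959 for diet in WT (Cxcl12), and 0 of these were called after the change. For loss of Mboat7 the count was 0, but DESeq2 called 1 on chow (Cx3cr1). On HFMCD, limma-voom and the fit to the compared groups alone each called 2 (Ccr1 with Cxcl14, and Ccr1 with Cx3cl1). Each of these alternatives also called more of all tested genes than the main fit. Leaving out each library in turn gave 0 to 1 on chow (Ccl6 without WT chow replicate 3, beside 611 of 15639 genes). For ligand and receptor relations on HFMCD it gave 0 to 1 (Ccl25 with Ccr9 without WT HFMCD replicate 3). The cause was not tested. The fit to compared groups was not run for the difference between diets, which needs all groups. No paired analysis was possible because the labels number each animal once and the groups share no numbers. Genes with few chow reads (Ccl7, Cxcl5, Ccr3) have wide intervals, and low levels limit the receptors on chow.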
